A study of Homo sapiens with 12 samples.

Results

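TNFAIP3 and 8 further genes through which NF-kB limits or relays its own activity (NFKBIA, NFKBIE, NFKB1, NFKB2, RELB, BIRC3, TNIP1 and BCL3) were followed through 12 RNA-seq libraries of HSC-3 cells, an established line from a human squamous carcinoma of the mouth. They are 9 of 60675 gene rows in each library's table. Each was read at its own row and, where one exists, at the annotated feature with the most reads that overlaps its exons by at least 30 bases on the other strand and the exons of no other coding gene. Only TNFAIP3 has such a feature, the noncoding gene WAKMAR2, so the 9 genes gave 10 readings. Of these, 8 passed the filter on low counts and were tested: 7 own rows and the WAKMAR2 row. NFKBIE and BCL3 did not pass it.

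The 3 groups held 4 libraries each: untreated cells, cells stimulated for 3 hours with 25 µM cyclopiazonic acid (CPA), and cells given the same CPA in the presence of synta-66. CPA inhibits SERCA, the pump that loads calcium into the endoplasmic reticulum, and when these stores run empty ORAI calcium channels open at the cell surface. Synta-66 is an ORAI inhibitor; the sources used here do not give its dose. All groups were of the 1 cell line, and the 12 libraries hold no group given synta-66 alone. What synta-66 does without CPA was therefore not tested. Whether replicates were separate cultures is not stated in the labels, so p-values here measure only the spread between libraries, which may be technical.

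NF-kB is a family of dimers built from RELA, RELB, REL, p50 (made from NFKB1) and p52 (made from NFKB2). In resting cells IkB proteins such as those of NFKBIA and NFKBIE hold the dimers in the cytoplasm, and IkB kinase releases them by marking IkB for destruction. The freed dimers bind kB sites in DNA and switch on inflammatory and survival genes together with their own brakes. These brakes include the IkB proteins and A20, the ubiquitin-editing enzyme encoded by TNFAIP3.

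Reads assigned to genes numbered 2819486 to 5458858 per library, 3.58% to 9.4% of their uniquely aligned reads. Features that face a coding exon on the other strand took 63.8% of all gene reads, and ACTB, the cytoskeletal actin, had 30 to 96 reads per library at its own row. This is why each member was also looked for on the other strand; whether an own row holds the gene's own transcripts was not tested. Untreated replicate 3 and replicates 1 and 4 of CPA with synta-66 stood apart. Between 78.9% and 89.3% of their alignments were non-unique, against 32.9% to 57.6% in the other libraries. Mitochondrial ribosomal RNA took 39.63%, 53.53% and 49.43% of the gene reads of the libraries that stood apart, in that order. In the other libraries it took 0.17% to 11.85%. Results that rest on the libraries that stood apart are given with and without them. All 11 squamous epithelial markers were tested at their own rows, with a summed level of 7040 to 8710 CPM (counts per 1000000 gene reads, after scaling). Nearly all of it came from the KRT8 row (6950 to 8630 CPM), which lies opposite KRT18, and the other 10 summed to between 70 and 141 CPM. Of 6 fibroblast and 5 endothelial markers none passed the filter, and their summed levels reached at most 1.04 and 1.29 CPM. Of 6 immune markers 2 (CD14 and CD68) passed, and the 6 summed to between 2.18 and 9.0 CPM. In bulk RNA, fewer responding cells and less RNA per cell cannot be told apart.

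TNFAIP3 (ENSG00000118503) lies on chromosome 6 from 137867214 to 137883314 on the plus strand of GRCh38, as annotated by GENCODE 44. WAKMAR2 (ENSG00000237499), a long noncoding RNA gene, lies on the minus strand from 137823673 to 137868233, so its first exon starts inside the first intron of TNFAIP3, 1019 bases after the TNFAIP3 start. The exons of the pair overlap between 137867642 and 137867736, by 95 bases. These bases are untranslated sequence and belong to 1 of 9 annotated TNFAIP3 transcripts, in an alternative first exon. They make up 2.29% of the 4150 exonic bases of WAKMAR2 and 1.47% of the 6443 of TNFAIP3. The tables give reads per gene and no read positions. Reads from WAKMAR2's own transcript therefore cannot be told apart from reads of TNFAIP3, and the level given below is called that of the WAKMAR2 row.

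**Figure D1:**
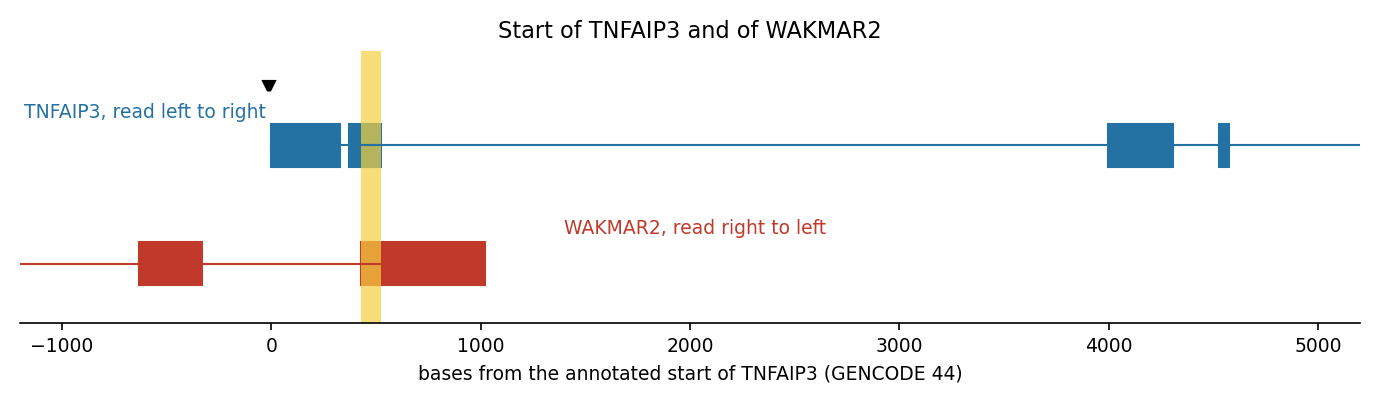
Exons (boxes) and introns (lines) of TNFAIP3 and WAKMAR2 around the TNFAIP3 start, in bases from that start in GENCODE 44. The yellow band is the 95-base exon overlap, which lies within the first exon of WAKMAR2, and the black triangle marks the kB matches directly before the TNFAIP3 start.

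The stretches of DNA before TNFAIP3 and NFKBIA are printed. TNFAIP3 was taken because the only reading called was the WAKMAR2 row, its other-strand feature. The TNFAIP3 own row was not called. NFKBIA is the best known NF-kB target among the others. Each stretch is 120 bases on the strand of its gene, from RefSeq on GRCh38.p14, with matches to the kB consensus in capitals.
TNFAIP3, chr6:137867094-137867213, plus strand: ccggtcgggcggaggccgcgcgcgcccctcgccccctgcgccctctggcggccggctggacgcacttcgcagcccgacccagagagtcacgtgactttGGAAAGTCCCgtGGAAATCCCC
NFKBIA, chr14:35404750-35404869, minus strand: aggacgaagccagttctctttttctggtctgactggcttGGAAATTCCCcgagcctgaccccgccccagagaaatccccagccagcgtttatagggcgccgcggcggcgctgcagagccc
The TNFAIP3 stretch ends directly before the annotated start and holds a pair of matches, which read GGGACTTTCC and GGGGATTTCC on the opposite strand. The NFKBIA stretch holds 1 match, which reads GGGAATTTCC on the opposite strand, 81 to 72 bases before the start. In the 250 bases before each RefSeq start, both strands searched, 7 of the 11 promoters of the members held the consensus, and 5.21% of 35116 promoters did. The 7 promoters belong to 6 genes: TNFAIP3, NFKBIA, NFKB1, NFKB2, BIRC3 and TNIP1. The NFKB1 match was GGGAATTTCC and that of TNIP1 was GGGACTTTCC. The promoter of BCL3 that was searched held none, and NFKBIE and RELB were not matched in the promoter table. The 13 matches overlap each other in part, and a palindromic match in NFKB2 was counted on both strands. A match is a description of the letters in the window.

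At the WAKMAR2 row the level was higher in CPA than in untreated cells in every library, and lower again in the presence of synta-66. The 4 untreated libraries gave 59.7, 52.8, 69.1 and 67.7 CPM (62.3 ± 7.56, SD, n = 4). The CPA libraries gave 110, 112, 118 and 115 CPM (114 ± 3.64). The libraries of CPA with synta-66 gave 49.1, 41.4, 60.9 and 37.9 CPM (47.3 ± 10.2). The CPA group overlapped neither of the others, while the untreated and the synta-66 groups overlapped. The share of all genes tested that separate in this way is not given here, so the lack of overlap only describes the values. These values rest on 87 to 577 reads per library.

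CPA raised the WAKMAR2 row by a log2 fold change of 0.87 ± 0.12 (SE; 95% interval 0.62 to 1.12; adjusted p = 2.96e-06), a 1.83-fold rise. It was called; a call needed a 1.5-fold change or more together with an adjusted p below 0.05. With synta-66 the row fell by 1.25 on the log2 scale against CPA alone (SE 0.13; interval -1.51 to -0.99; adjusted p = 1.3e-09). Against untreated cells CPA with synta-66 differed by -0.38 ± 0.13 (interval -0.65 to -0.12; adjusted p = 0.101), which was not called. The order of the groups was thus CPA above the others, with untreated cells and CPA with synta-66 not separated by the test. Without the 3 libraries that stood apart, the 3 differences were 0.93, -1.15 and -0.22. When the CPA rise was tested against the 1.5-fold minimum itself, adjusted p was 0.272; its interval reaches close to that minimum.

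The own row of TNFAIP3 held far fewer reads, 224 in the 12 libraries together against 3657 at WAKMAR2. Per kilobase of exon the mean level was 0.753 CPM at the own row and 17.9 CPM at WAKMAR2. Untreated libraries gave 2.91, 1.2, 2.81 and 3.52 CPM (2.61 ± 0.99). CPA libraries gave 5.68, 6.74, 6.96 and 2.81 CPM (5.55 ± 1.91). In CPA with synta-66 the values were 4.46, 4.96, 8.35 and 7.83 CPM (6.4 ± 1.98). All 4 libraries with synta-66 lay above all untreated ones, and 3 of the 4 CPA libraries did. This describes the values only, as the share of all genes tested that separate in this way is not given here.

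CPA against untreated gave 1.10 ± 0.45 at the TNFAIP3 own row (interval 0.2 to 2.01; adjusted p = 0.196). CPA with synta-66 against CPA gave 0.21 ± 0.42 (interval -0.65 to 1.06; adjusted p = 0.862), and against untreated 1.31 ± 0.45 (0.39 to 2.22; adjusted p = 0.104). None of these was called. The interval of the synta-66 difference from CPA at the own row does not reach the -0.99 that bounds the fall at the WAKMAR2 row.

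The readings were then set against each other as TNFAIP3 own reads per 100 WAKMAR2 reads, a comparison chosen after the values were seen. The ratio was 4.88, 2.27, 4.07 and 5.19 in untreated libraries and 5.18, 6.03, 5.89 and 2.45 in CPA libraries. It was 9.09, 12.0, 13.7 and 20.7 in CPA with synta-66, above every library of the other groups. On the log2 scale, with 0.5 added to each count, the group means were -4.6 ± 0.52, -4.41 ± 0.6 and -2.88 ± 0.48. CPA with synta-66 exceeded CPA by 1.53 and untreated cells by 1.72, each with a two-sided exact permutation p of 0.0286, the smallest that 4 against 4 libraries can give, and 0.0429 after Benjamini-Hochberg adjustment over the 3 comparisons. CPA and untreated cells differed by 0.19 (exact permutation p = 0.486). Without the 3 libraries that stood apart the differences were 1.47, 1.68 and 0.21. The p-values do not allow for choosing the comparison after the values were seen. The WAKMAR2 row is the denominator of the ratio, so the ratio takes in the fall of that row given above.

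**Figure D2:**
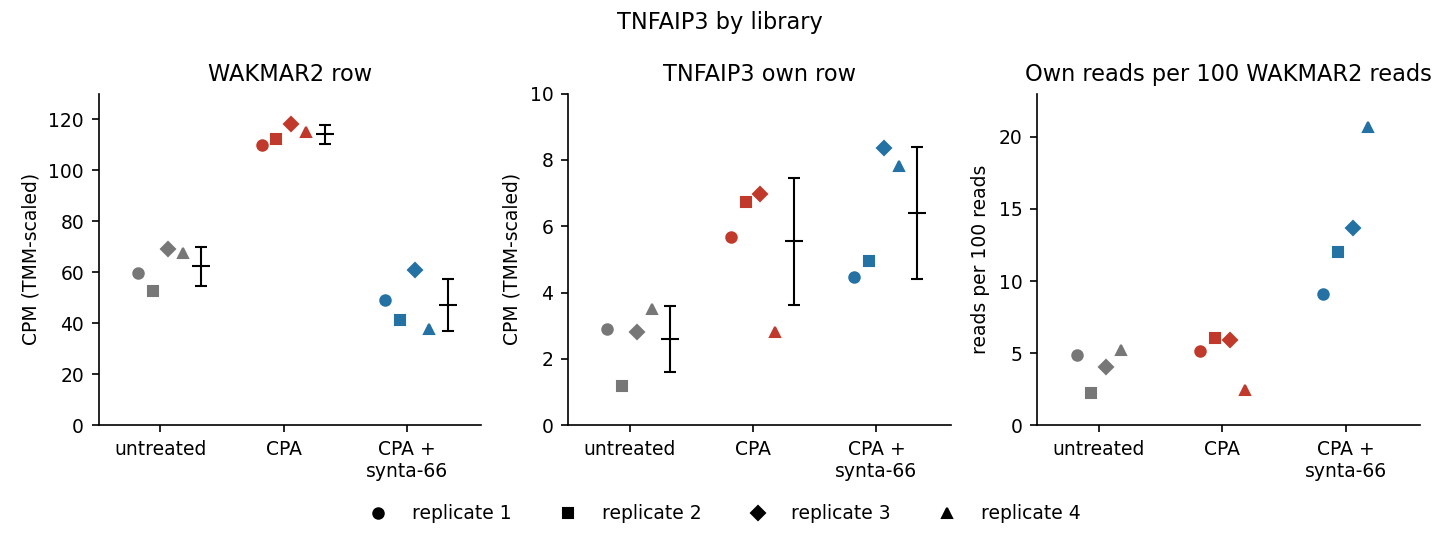
Level of the WAKMAR2 row (left) and of the TNFAIP3 own row (middle) in CPM, and own reads per 100 WAKMAR2 reads (right), by group; each point is a library, its shape the replicate number, and the bars are mean ± SD (n = 4). The CPA libraries stand at 110 to 118 CPM at the WAKMAR2 row, and the ratio lies between 9.09 and 20.7 in CPA with synta-66, above all other libraries.

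NFKBIA and NFKBIE encode IkB proteins, the direct inhibitors that mask NF-kB dimers. NFKBIA (ENSG00000100906, chromosome 14, 35401079 to 35404749) had the highest level per kilobase among the own rows, with a mean of 2.18 CPM per kilobase. Its untreated libraries gave 5.41, 6.2, 3.13 and 10.5 CPM (6.32 ± 3.1). Its CPA libraries gave 15, 10.9, 7.98 and 6.04 CPM (9.98 ± 3.88), and the libraries with synta-66 gave 4.87, 7.43, 6.14 and 5.22 CPM (5.92 ± 1.15). The 3 groups overlapped, with CPA replicate 1 the highest library. The differences were 0.65 ± 0.36 for CPA against untreated (interval -0.07 to 1.37; adjusted p = 0.402) and -0.72 ± 0.36 for synta-66 with CPA against CPA (interval -1.46 to 0.01; adjusted p = 0.276). They had the signs seen at the WAKMAR2 row, and neither was called; both intervals include changes larger than 1.5-fold. CPA with synta-66 differed from untreated cells by -0.07 ± 0.38 (adjusted p = 0.965).

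NFKBIE (ENSG00000146232, chromosome 6, 44258166 to 44265788) had 10 reads in all, 1 in untreated cells, 3 in CPA and 6 in CPA with synta-66. In 7 of 12 libraries it had 0 reads, which allows up to 3 reads, or 0.6 to 0.938 CPM in these 7 libraries. No difference was detectable at this count.

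NFKB1 and NFKB2 encode precursors that act as IkB-like inhibitors until they are processed to p50 and p52, and RELB is the partner of p52 in the noncanonical pathway. NFKB1 (ENSG00000109320, chromosome 4, 102501330 to 102617302) averaged 2.34 ± 1.19 CPM in untreated cells, 1.87 ± 1.46 in CPA and 1.88 ± 0.701 in CPA with synta-66. Its libraries ranged from 0.938 to 3.52 CPM, from 0 to 3.49 CPM and from 0.87 to 2.43 CPM in that order. NFKB2 (ENSG00000077150, chromosome 10, 102394110 to 102402524) averaged 2.0 ± 1.13, 1.96 ± 1.3 and 2.33 ± 1.58 CPM in the same order. At both genes the groups overlapped almost fully.

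CPA differed from untreated cells by -0.31 ± 0.71 at NFKB1 (interval -1.74 to 1.12; adjusted p = 0.905) and by 0.02 ± 0.7 at NFKB2 (-1.39 to 1.43; adjusted p = 0.995). CPA with synta-66 differed from CPA by 0.01 ± 0.73 at NFKB1 and by 0.28 ± 0.71 at NFKB2, and from untreated cells by -0.3 ± 0.73 and 0.3 ± 0.72. At both genes every interval spans more than 2-fold changes in either direction, so these counts do not settle whether these subunits changed.

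RELB (ENSG00000104856, chromosome 19, 45001461 to 45038192) had 43 reads. The reads per library were 2, 1, 1 and 4 in untreated cells, 7, 6, 3 and 10 in CPA and 2, 1, 0 and 6 in CPA with synta-66. In CPM the group means were 0.525 ± 0.44, 1.49 ± 0.664 and 0.912 ± 1.18. CPA exceeded untreated cells by 1.49 ± 1.05, with an interval from -0.64 to 3.62 (adjusted p = 0.565). CPA with synta-66 against CPA gave -0.83 ± 1.05 (interval -2.95 to 1.28; adjusted p = 0.75), and against untreated 0.66 ± 1.13 (adjusted p = 0.874). The last of these turned to -2.03 without the 3 libraries that stood apart.

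TNIP1, BIRC3 and BCL3 act at other points of the feedback. TNIP1 encodes ABIN1, which binds A20 and ubiquitin chains, BIRC3 encodes cIAP2, a ubiquitin ligase recruited to TNF receptors, and BCL3 is a nuclear IkB-like cofactor of p50 and p52. TNIP1 (ENSG00000145901, chromosome 5, 151029945 to 151093577) gave 7.49, 4.4, 3.75 and 7.03 CPM in untreated libraries (5.67 ± 1.87). It gave 5.68, 4.19, 2.87 and 1.3 CPM in CPA (3.51 ± 1.87) and 3.25, 2.93, 3.44 and 1.74 CPM in CPA with synta-66 (2.84 ± 0.762). All libraries with synta-66 lay below all untreated ones, while CPA overlapped both groups. The share of all genes tested that separate in this way is not given here, so this only describes the values.

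The TNIP1 differences were -0.71 ± 0.47 for CPA against untreated (interval -1.65 to 0.23; adjusted p = 0.523) and -0.27 ± 0.5 for CPA with synta-66 against CPA (adjusted p = 0.848). CPA with synta-66 against untreated gave -0.97 ± 0.48 (interval -1.95 to 0.01; adjusted p = 0.354). None was called. In untreated cells the TNFAIP3 and TNIP1 own rows stood at 0.405 and 0.979 CPM per kilobase, and in CPA with synta-66 at 0.993 and 0.49; the difference between the genes was not tested.

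BIRC3 (ENSG00000023445, chromosome 11, 102317484 to 102339403) had 46 reads, with group means of 0.659 ± 0.519, 0.8 ± 0.434 and 1.36 ± 1.02 CPM in untreated cells, CPA and CPA with synta-66. Its 3 differences were 0.21 ± 1.03, 0.79 ± 1.0 and 1.0 ± 1.01 (adjusted p = 0.962, 0.752 and 0.749), the first of which was -0.15 without the 3 libraries that stood apart. BCL3 (ENSG00000069399, chromosome 19, 44747705 to 44760044) had 20 reads: 5 in untreated cells, 10 in CPA and 5 in CPA with synta-66, with at most 5 in a library and 0 in 5 of 12 libraries. Its interval was not estimated, as it did not pass the filter.

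**Figure D3:**
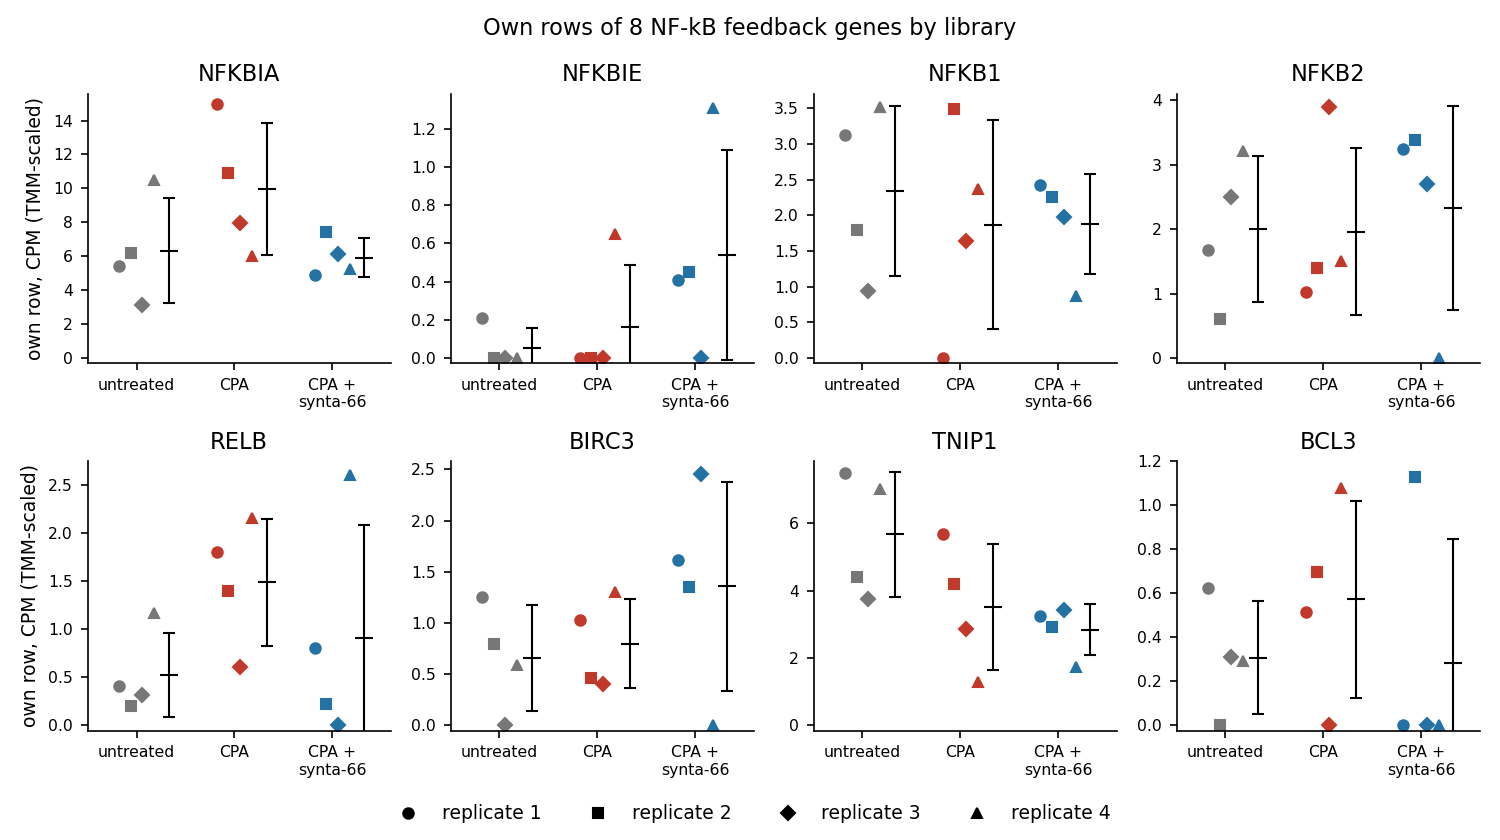
Level in CPM at the own row of the 8 members other than TNFAIP3, by group; each point is a library, its shape the replicate number, and the bars are mean ± SD (n = 4), with a separate axis for each gene. NFKBIA and TNIP1 are the most abundant of these rows, and most libraries of NFKBIE stand at 0.

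In CPA against untreated, 1 of the 8 readings tested was called, the WAKMAR2 row, where 2.85% of all 14911 genes tested and 4.75% of the 3956 tested features that serve as a coding gene's other-strand reading were called. In CPA with synta-66 against CPA it was again 1 of 8, against 4.76% and 7.08%. In CPA with synta-66 against untreated it was 0 of 8, against 2.9% and 4.17%; edgeR gave 2 of the 8 an unadjusted p under 0.05 (the TNFAIP3 own row and the WAKMAR2 row), and DESeq2 called 0, with no adjusted p for 2. Among the 7 own rows tested, edgeR called 0 in each of the 3 comparisons, with 1, 0 and 1 at an unadjusted p under 0.05, each time TNFAIP3. DESeq2 also called 0 of these rows, but gave no adjusted p for 4, 2 and 2 of the 7. The shares of all genes tested at that unadjusted p, or called by DESeq2, are not given here. The median log2 fold change of the 7 own rows was 0.21, 0.01 and 0.3, beside -0.01, -0.04 and -0.06 over all genes tested. CPA against untreated and CPA with synta-66 against CPA share the CPA libraries, so opposite changes in these comparisons are not independent.

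**Figure D4:**
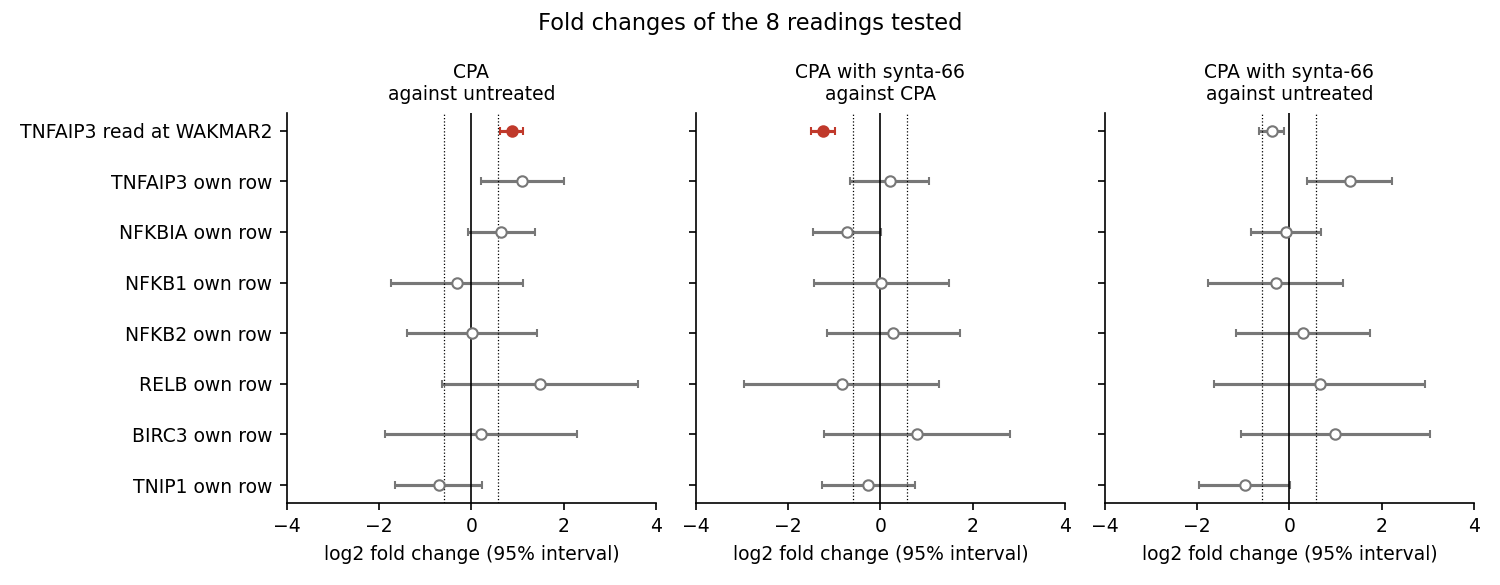
Log2 fold change with its 95% interval for the 8 readings tested, in each comparison; filled red points were called and open points were not, and dotted lines mark 1.5-fold. The WAKMAR2 row was called at 0.87 and -1.25, and the intervals of RELB and BIRC3 are the widest.

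The wider pathway was followed through 86 genes in 6 lists, of which 85 had a row and 53 passed the filter at their own row. At own rows 0 of the 53 were called in CPA against untreated, by edgeR. In CPA with synta-66 against CPA 1 was called, higher, and in CPA with synta-66 against untreated 1 was called, higher. Of all genes tested, 2.85%, 4.76% and 2.9% were called by edgeR in the 3 comparisons. Over the 3 comparisons 7, 8 and 4 of the 53 had an unadjusted p under 0.05 in edgeR, and DESeq2 called 1, 2 and 0 while giving no adjusted p for 24, 22 and 18. The shares of all genes tested at that unadjusted p, or called by DESeq2, are not given here. These counts therefore do not show an excess in the pathway. The medians over the 53 were 0.08, 0.06 and 0.07. At other-strand features 20 genes had a tested reading. Of these rows 2 rose with CPA, 2 rose and 1 fell with synta-66 added to CPA, and 1 was higher in CPA with synta-66 than in untreated cells, where 4.75%, 7.08% and 4.17% of all other-strand features tested were called. As at WAKMAR2, such a row's own transcript cannot be told apart from that of the gene opposite it, so the values below are those of the named row. The medians over the 20 were -0.21, 0.17 and -0.1, beside 0.03, 0 and 0.01 over all other-strand features tested.

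Ligands and receptors upstream of NF-kB (18 genes, 8 tested at own rows and 2 at other-strand features) had 0 called in the 3 comparisons. The 5 IkB kinases and related kinases (4 tested at each reading), the other REL subunits RELA and REL (both tested at own rows) and 13 other inhibitors (7 and 2 tested) also had 0 called. In the 3 comparisons 2.85%, 4.76% and 2.9% of all genes tested were called, and 4.75%, 7.08% and 4.17% of other-strand features. At such shares lists this short can hold 0 calls, so 0 called does not show that these genes were unchanged. Adaptors, ubiquitin enzymes and kinases (23 genes, 17 and 6 tested) had 1, the row of MALT1-AS1, which lies opposite MALT1, the paracaspase that cleaves A20 in lymphocytes. The MALT1-AS1 row was higher in CPA with synta-66 (29.2 ± 9.19 CPM) than in CPA (16.9 ± 3.28 CPM), by 0.78 ± 0.21 (adjusted p = 0.013), with untreated cells at 20.3 ± 1.08 CPM; the own row of MALT1 did not pass the filter. Without the 3 libraries that stood apart the MALT1-AS1 difference was 0.73 and the call was lost (adjusted p = 0.0699). That fit kept only replicates 2 and 3 of CPA with synta-66. The call was also lost without CPA replicate 2 (0.66, adjusted p = 0.0659) or without replicate 4 of CPA with synta-66 (0.59, adjusted p = 0.111). Adjusted p ranged from 0.00386 to 0.678 over its alternatives.

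The other calls were among the 25 further NF-kB targets (15 tested at own rows, 6 at other-strand features). The row of IER3-AS1, which lies opposite the stress-induced survival gene IER3, had 1420 ± 86.2 CPM in untreated cells, 2790 ± 144 in CPA and 1050 ± 46.6 in CPA with synta-66. Its changes were 0.97 ± 0.07 with CPA and -1.42 ± 0.07 with synta-66 added (adjusted p = 1.37e-14 and 4.65e-20), in the same directions as the WAKMAR2 row. The CPA libraries again lay above all others, and the share of all genes tested that separate in this way is not given here. CPA with synta-66 against untreated gave -0.44 ± 0.07 at the IER3-AS1 row (edgeR, adjusted p = 8.25e-06), under the minimum fold and so not called. At the WAKMAR2 row that difference was -0.38 ± 0.13 (edgeR, adjusted p = 0.101). The own row of IER3 was not called, with group means of 3.45 to 4.55 CPM.

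The cytokine gene IL6 and the feature opposite it, IL6-AS1, differed in their values. The IL6-AS1 row rose from 8.83 ± 2.6 CPM in untreated cells to 21.4 ± 1.85 with CPA (1.29 ± 0.22; adjusted p = 7.57e-05) and stood at 29.6 ± 4.11 in CPA with synta-66 (1.76 ± 0.22 above untreated; adjusted p = 1.73e-07). The step from CPA to CPA with synta-66 at IL6-AS1 was 0.47 ± 0.2 and was not called (adjusted p = 0.18). At its own row IL6 had 6.79 ± 4.06, 2.36 ± 1.18 and 7.45 ± 2.84 CPM, with a difference of -1.49 ± 0.47 for CPA against untreated (adjusted p = 0.0582, not called). The step from CPA to CPA with synta-66 was called (1.66 ± 0.47; adjusted p = 0.0205). That call was lost without CPA replicate 4 (adjusted p = 0.0882) and without replicate 2 (0.0558) or 4 (0.0752) of CPA with synta-66, with adjusted p from 0.0101 to 0.185 over its alternatives.

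The row of ABALON, which lies opposite BCL2L1, the gene of the survival protein BCL-XL, went from 548 ± 48.9 CPM in CPA to 875 ± 50.2 with synta-66 added, a rise of 0.68 ± 0.07 (adjusted p = 8.56e-09), with untreated cells at 784 ± 45 CPM. The own row of BCL2L1 was not called in that comparison (0.48 ± 0.38; adjusted p = 0.554). CXCL8, the neutrophil chemokine interleukin 8, had 0 reads in all 4 untreated libraries at its own row, 16 reads in CPA and 26 in CPA with synta-66. A count of 0 allows up to 3 reads over the untreated group. The CXCL8 mean in CPA with synta-66 (2.19 ± 0.99 CPM) was 12-fold the level of those 3 reads. The error of that mean is not counted, so 12-fold is not a lower bound. In CPA with synta-66 against untreated, edgeR called CXCL8 (adjusted p = 0.0123). DESeq2 gave CXCL8 no adjusted p, and the edgeR call was lost without the 3 libraries that stood apart (adjusted p = 0.138). That fit kept only replicates 2 and 3 of CPA with synta-66. Adjusted p ranged from 0.00583 to 0.138 over the alternatives for CXCL8.

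Finally, the 6357 features with a mean of at least 5 CPM were ranked by the Pearson correlation of their log2 CPM with the WAKMAR2 row over the 12 libraries, which share their depth, scaling and 3-group design. The 5 highest were ENSG00000260892, which lies opposite CSPG4 (r = 0.965), IER3-AS1 (0.948), RBBP4, which lies opposite SYNC (0.947), ENSG00000267801, which lies opposite TRIM47 (0.941), and NDUFB9 (0.941). They were chosen for this likeness, so that each is highest in CPA follows from the choice. ENSG00000260892 passed the minimum mean only through CPA: it went from 2.12 ± 0.983 CPM in untreated cells to 12.7 ± 3.53 in CPA and 0.962 ± 0.443 in CPA with synta-66, and RBBP4 from 62.4 ± 6.88 to 139 ± 17 and 37.2 ± 10.8. ENSG00000267801 had 151 ± 23.5, 266 ± 11.8 and 95 ± 6.81 CPM, and NDUFB9 57.2 ± 6.41, 115 ± 12.7 and 52.8 ± 2.74 CPM. Among the members' own rows the same correlation was 0.49 for NFKBIA, 0.31 for RELB, 0.22 for NFKB2 and 0.1 for TNFAIP3 itself. It was 0.03 for TNIP1, -0.01 for BIRC3 and -0.12 for NFKB1. These rows were not chosen for their correlation as the 5 features were, and all but NFKBIA lie below the 5 CPM minimum of that ranking, so the values are not set against each other.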

How the data were processed

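Each of the 12 libraries has 1 deposited table of raw counts of reads per gene. Per the labels' protocols, the authors trimmed paired-end reads, aligned them with STAR 2.5.2a to GRCh38 with the Ensembl 84 annotation and counted them with HTSeq 0.6.1p1, taking the library as stranded; no source used here names the library kit. Per the submitters' processing notes the trimmer was Trimmomatic 0.36. The 5 closing rows of each table were left out.

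The test was edgeR's quasi-likelihood test (edgeR 4.0.16, R 4.3.3) on TMM-scaled counts, with at least 5 reads required in 2 of the 4 libraries of a group. All 12 libraries entered 1 fit on group alone, and p-values were adjusted by Benjamini-Hochberg over 14911 genes. The SE was derived from that test, as the absolute log2 fold change divided by the square root of its F statistic. Intervals of fold changes use this SE with a t quantile. Both are approximate, most of all at rows with few reads. CPM uses TMM-scaled library sizes, and log2 CPM a prior count of 2. Counting intervals and the limit of 3 reads cover counting error only. Exons come from GENCODE 44, in which 56558 of 60675 IDs were matched; SOD2 was not matched to a row. Steps were tested on simulated data. The members and lists were chosen with earlier results of these data known. Named are all members, up to 4 called genes per list, comparison and reading (mean of 1 CPM or more), and the 5 features most like the WAKMAR2 row. Alternatives were DESeq2 1.42.0, other scalings, filters, fold rules, overlaps and fits, and leaving out libraries.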

Additional observations from a re-analysis of the deposited data

Results flagged for a closer look

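Within a group of 4 libraries, a value was marked when its gap to the nearest other library was a larger share of the group's range than Dixon's 95% critical value, which chance exceeds in about 1 group in 20 for continuous values. Of 30 groups of values examined, 4 held such a value, all at own rows with few reads. In 3 of the 4 the other libraries were all at 0 reads, where any read is marked by construction and that rate does not hold. NFKB2 stood at 3.89 CPM (19 reads) in CPA replicate 3, against 1.03 to 1.51 CPM in the other CPA libraries. NFKBIE stood at 0.208 CPM (1 read) in untreated replicate 1 and at 0.648 CPM (3 reads) in CPA replicate 4, with 0 reads in the other libraries of each group. BCL3 stood at 1.13 CPM (5 reads) in replicate 2 of CPA with synta-66, with 0 reads in the other 3.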

How the results depend on the processing

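The fall of the WAKMAR2 row with synta-66 against CPA was called under all 21 alternatives at which it was read, and its rise with CPA under all but the test against the 1.5-fold minimum (0.87, adjusted p = 0.272). That test left 0 readings called in CPA against untreated, and 100, 157 and 102 of all genes in the 3 comparisons, in place of 425, 710 and 433. It also ended the calls of the MALT1-AS1 row (adjusted p = 0.678), IL6 at its own row (0.185), CXCL8 (0.0531) and the ABALON row (0.551). With no minimum fold 655 genes were called in CPA against untreated. An overlap minimum of 100 bases left 0 readings called in CPA against untreated and in CPA with synta-66 against CPA, since the overlap of WAKMAR2 is 95 bases. Leaving out each library in turn, the WAKMAR2 differences ranged from 0.79 to 0.92, from -1.41 to -1.17 and from -0.53 to -0.3; without replicate 3 of CPA with synta-66 the last had an adjusted p of 0.0161 (0.0161 to 1 over its alternatives) and was still under the minimum fold.

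The 21 own-row results gave 427 values under the alternatives, of which 0 were called and 19 had the opposite sign. Leaving out libraries, CPA against untreated ranged from -0.55 to 0.35 at NFKB2, -0.15 to 0.68 at BIRC3 and -0.77 to 0.09 at NFKB1. CPA with synta-66 against CPA ranged from -0.38 to 0.47 at NFKB1, -0.54 to 0.06 at TNIP1 and -0.02 to 0.34 at the TNFAIP3 own row. CPA with synta-66 against untreated ranged from -0.02 to 0.67 at NFKB2, -0.28 to 0.26 at NFKBIA and -0.71 to 1.32 at RELB. The log2 ratio of TNFAIP3 own reads to WAKMAR2 reads ranged from -0.05 (without untreated replicate 2) to 0.49 for CPA against untreated, from 1.23 to 1.7 and from 1.47 to 1.89. Without the 3 libraries that stood apart, BIRC3 was -0.15 in CPA against untreated and RELB -2.03 in CPA with synta-66 against untreated. The cause was not tested.

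Whether the replicate numbers pair the libraries is not settled here. The deviations of the 12 same-numbered pairs had correlations from -0.024 to 0.054, beside a median of -0.005 over pairs of other numbers. Of 12 libraries, 5 were nearest to their own number. Noise in genes with few reads can hide a pairing in such correlations, so they cannot exclude one. With the replicate number as a block the WAKMAR2 differences were 0.87, -1.27 and -0.39, NFKB2 in CPA against untreated was -0.09, the calls of the members were unchanged, and 441, 723 and 418 of all genes were called. Low counts limit the own rows. NFKBIE, BCL3, RELB, BIRC3, NFKB1 and NFKB2 had 10 to 100 reads per gene in all 12 libraries together. Their intervals exceed 2-fold where they could be fitted. Whether sequencing depth or the strand that was counted sets these counts was not tested.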
